A study of Mus musculus with 33 samples.

Results

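Mitochondrial carriers of the Slc25 family move metabolites, phosphate and nucleotides across the inner mitochondrial membrane, and 8 genes were considered here: the carriers Slc25a3, Slc25a4, Slc25a5, Slc25a10, Slc25a11, Slc25a25 and Slc25a42, and the uncoupling protein gene Ucp2. Members were found as the probe sets (groups of short array features that together report 1 transcript) whose gene symbol in the array's annotation is one of these names. The rule found 22 probe sets for 7 of the 8 genes, out of 45037 probe sets that are not array controls; Ucp2 was not analysed here. All 7 genes, through 18 of the 22 probe sets, passed a filter for signal (10 or more arrays at a log2 value of 4 or higher) that took no account of diet, and 9005 genes passed it in all.

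Livers of male C57BL/6J mice aged 17 weeks were profiled on 33 arrays, 1 per mouse, after 2 weeks on 1 of 3 diets. The control diet (n = 10) carried sunflower oil, of which 81.3% was oleic acid, as 7% of energy. The fenofibrate diet (n = 12) carried sunflower oil at the same share of energy plus fenofibrate, an agonist of the nuclear receptor PPARα, at 0.03% by weight. The fish oil diet (n = 11) carried, as 7% of energy, fish oil with 23.1% EPA and 21.1% DHA in place of sunflower oil. All mice were housed 2 to a cage and fasted in the morning before the liver was taken, and cage mates are not identified in the labels.

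Each Slc25 carrier is built from repeated pairs of membrane helices and usually exchanges 1 substrate for another. In hepatocytes, carriers supply phosphate and ADP for ATP synthesis, return ATP to the cytosol, pass malate and other dicarboxylates between the compartments for gluconeogenesis and lipogenesis, carry reducing equivalents in the malate-aspartate shuttle, and bring in coenzyme A. PPARα induces many genes of fatty acid oxidation in the liver, and long-chain polyunsaturated fatty acids of fish oil are among its natural ligands.

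Promoter sequence was available from RefSeq (GRCm38.p6) for all 7 measured genes, as 9 windows of 250 bases before to 50 bases after an annotated start. The windows of Slc25a10 and Slc25a4 are shown because these carriers differed most between diets, that of Slc25a3 because this carrier varied least between mice, and 1 of the 3 windows of Slc25a25 because this carrier varied most. The Slc25a25 window printed is the only 1 of its 3 that holds the full cAMP response element. Each is printed on its gene's strand, with GC boxes (GGGCGG on either strand) and the cAMP response element (TGACGTCA) in capitals.
Slc25a10, chr11:120491587-120491886, plus strand: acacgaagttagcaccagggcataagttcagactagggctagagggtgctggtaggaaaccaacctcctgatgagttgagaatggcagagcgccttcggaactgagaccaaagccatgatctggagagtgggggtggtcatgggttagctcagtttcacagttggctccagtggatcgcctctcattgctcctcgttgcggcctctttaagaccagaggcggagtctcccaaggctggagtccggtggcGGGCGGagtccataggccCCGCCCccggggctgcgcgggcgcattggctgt
Slc25a4, chr8:46211013-46211312, minus strand: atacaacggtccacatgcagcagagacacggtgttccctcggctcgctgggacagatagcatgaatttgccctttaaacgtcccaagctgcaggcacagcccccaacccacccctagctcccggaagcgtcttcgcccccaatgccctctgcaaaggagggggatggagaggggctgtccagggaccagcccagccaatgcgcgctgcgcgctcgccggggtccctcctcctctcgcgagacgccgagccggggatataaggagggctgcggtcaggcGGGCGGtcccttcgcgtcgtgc
Slc25a3, chr10:91123918-91124217, minus strand: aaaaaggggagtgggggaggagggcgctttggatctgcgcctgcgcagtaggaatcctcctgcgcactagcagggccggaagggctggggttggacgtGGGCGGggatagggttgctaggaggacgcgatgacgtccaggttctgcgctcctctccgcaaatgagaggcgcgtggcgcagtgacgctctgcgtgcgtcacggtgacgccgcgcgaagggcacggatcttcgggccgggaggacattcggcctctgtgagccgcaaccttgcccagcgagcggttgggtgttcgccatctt
Slc25a25, chr2:32424017-32424316, minus strand: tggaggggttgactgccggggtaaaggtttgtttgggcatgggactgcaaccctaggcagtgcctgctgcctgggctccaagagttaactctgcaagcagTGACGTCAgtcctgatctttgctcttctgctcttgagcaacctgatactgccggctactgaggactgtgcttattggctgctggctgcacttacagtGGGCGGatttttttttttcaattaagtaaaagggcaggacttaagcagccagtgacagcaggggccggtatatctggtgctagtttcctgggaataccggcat

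A GC box was present in 8 of the 9 windows, against 35.7% of the 32851 windows of the table, and the members' windows held 51.3% to 65.7% G and C against a median of 52.7%. The sequence CCAAT, searched on both strands, was present in 7 of the 9 windows and in 37.4% of all windows. The full cAMP response element was found in 1 window, that of Slc25a25 shown here, where it begins 150 bases before the start; 1.79% of all windows held it. Neither the letters AGGTCA, the half-site bound by PPARα and related receptors, nor their direct repeat AGGTCANAGGTCA was found in any of the 9 windows on either strand, against 16.3% and 0.0396% of all windows. The E-box CACGTG was in none of the 9 either, against 7.15%. These matches describe the letters in the windows only.

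Values are log2 expression values. Each gene is represented by its probe set with the highest mean, differences are log2 differences between group means ± their standard error from limma, and a gene was called at a Benjamini-Hochberg adjusted p under 0.05 over the 9005 genes. Array medians lay between 2.90 and 2.97, no pair of arrays held identical values, and correlations between arrays were 0.984 to 0.997. Control replicates 1, 2 and 9 stood apart in earlier work on these data. Counts that changed by over 1.5 times without them are therefore also given that way. The marker counts below are to be read against all genes. On fenofibrate 18.9% of all genes were called lower than on control, and 40.8% were called in either direction. On fish oil these shares were 7.00% and 14.5%. Without control replicates 1, 2 and 9, 19.8% of all genes were called lower on fenofibrate and 8.0% on fish oil. Of the hepatocyte markers, 12 of 14 were measured; 8 were lower on fenofibrate and 3 on fish oil than on control, and none was higher. The log2 of their summed linear values, called the summed level, was 17.74 to 17.85 in control, 17.57 to 17.70 in fenofibrate and 17.69 to 17.79 in fish oil livers. The brightest markers weigh most in it. All 15 Kupffer cell markers were measured, and 4 were lower on fenofibrate, with summed levels of 12.90 to 13.96 against 13.46 to 14.18 in control livers; without control replicates 1, 2 and 9, 2 were lower. On fish oil 1 of the 15 was lower. Of 10 sinusoidal endothelial markers 4 were lower and 1 higher on fenofibrate, and 3 were lower on fish oil; of 7 measured stellate cell markers 5 were lower and 1 higher on fenofibrate, and none was called on fish oil (1 lower without the 3 controls). Of the cholangiocyte markers, Krt19, Krt7, Epcam and Spp1 were not measured. Krt23 was 5.63 higher on fenofibrate and 3.73 higher on fish oil. Sox9, the other measured marker, was called on neither diet (-0.18, limma adjusted p = 0.254, and -0.04, limma adjusted p = 0.871). Of the adipocyte markers, Adipoq, Plin1, Retn, Cfd and Lep were not measured; on fenofibrate Cidec (3.90) and Fabp4 (1.28) were higher and Car3 (-0.56) lower, and none of these was called on fish oil. Of 2 measured erythroid markers, Alas2 was lower (-1.04) and Bpgm higher (0.40) on fenofibrate, and Bpgm was higher on fish oil (0.28). Of 2 measured lymphocyte markers, Ighm was higher on fenofibrate (0.67), which did not pass without the 3 controls. None of 8 muscle markers, among them Ckm and Acta1, passed the signal filter. The part of cell composition in the differences below was not tested, and in whole liver a smaller number of cells of a type and less RNA per cell cannot be told apart.

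On fenofibrate, 3 of the 7 measured carriers were higher than on the control diet and none was lower: the dicarboxylate carrier Slc25a10, the ADP/ATP translocase Slc25a4 and the phosphate carrier Slc25a3. Of all genes, 40.8% were called in this comparison, 22% as higher and 18.9% as lower. On fish oil, 1 of the 7, Slc25a10, was higher than on control and none was lower, where 14.5% of all genes were called, 7.53% as higher and 7.00% as lower. Between the diets, 5 of the 7 were higher on fenofibrate than on fish oil and none was lower, against 38.9% of all genes called, 19.8% as higher and 19.1% as lower. The median difference of the 7 from control was 0.14 on fenofibrate and -0.06 on fish oil, and 0.22 on fenofibrate relative to fish oil, beside medians of 0.00, 0.01 and -0.01 over all genes. The first 2 comparisons share their 10 control livers. The fish oil count changed with the controls used, while Slc25a10 stayed called. Without control replicate 1 it was 3 of 7 (Slc25a10, Slc25a42 higher and Slc25a4 lower), and no other single array changed the count when left out. Without control replicates 1, 2 and 9 it was 3 of 7 (Slc25a10, Slc25a42 higher and Slc25a11 lower), where 7.9% of all genes were called higher and 8.0% lower. At the level of single probe sets, 9 of the 18 were called on fenofibrate against control (36.6% of the 17162 tested, 19.6% as higher and 17.0% as lower), all as higher. On fish oil 2 of the 18 differed from control (11.6% of all, 6.23% as higher and 5.34% as lower), both of Slc25a10 and both higher, and 4 of the 18 without control replicate 1. In the last comparison 14 were higher on fenofibrate than on fish oil (34.5% of all called, 17.4% as higher and 17.1% as lower).

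**Figure D1:**
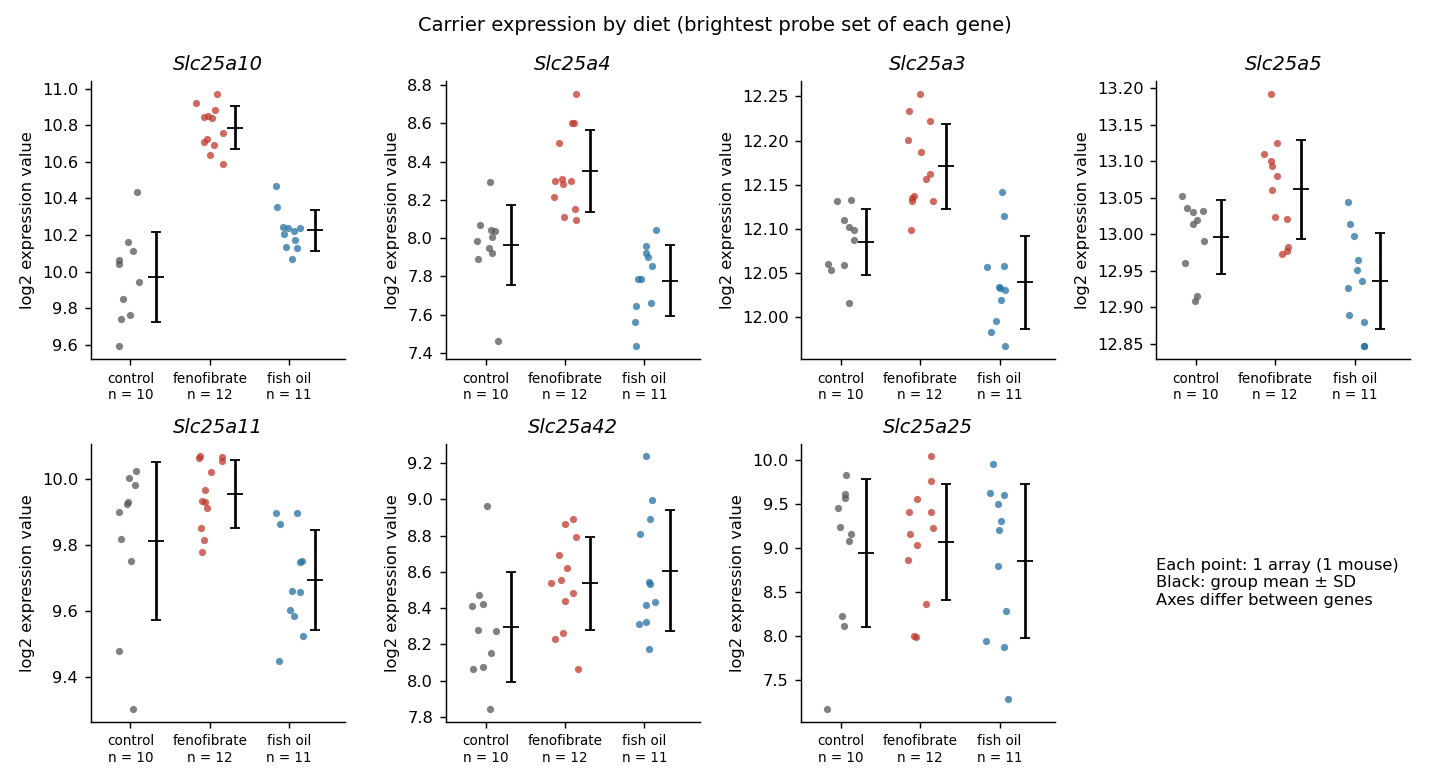
Log2 expression of the 7 carriers in each liver by diet; points are arrays (1 mouse each), black marks are group means ± SD, and axes differ between genes. For Slc25a10 the lowest fenofibrate liver (10.59) lies above the highest control (10.44) and fish oil (10.47) livers, while the Slc25a25 values of all 3 diets spread from 7.16 to 10.04.

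Slc25a10, the dicarboxylate carrier, exchanges malate and succinate for phosphate. Its values were 9.59, 9.99 and 10.44 (lowest, median and highest) in control livers, 10.59, 10.80 and 10.97 in fenofibrate livers and 10.07, 10.22 and 10.47 in fish oil livers. Every fenofibrate liver was above every control and every fish oil liver, while fish oil and control livers overlapped. Slc25a10 was 1.76-fold higher on fenofibrate than on control (0.81 ± 0.07, limma adjusted p = 3.79e-11), where 3.58% of all genes were higher and 1.83% lower without overlap. It was 1.19-fold higher on fish oil than on control (0.25 ± 0.07, limma adjusted p = 0.0154) and 1.47-fold higher on fenofibrate than on fish oil (0.56 ± 0.07, limma adjusted p = 6.46e-08). Between fenofibrate and fish oil, 4.09% of all genes were higher and 2.25% lower without overlap. Its second probe set differed by 0.87 ± 0.08, 0.31 ± 0.08 and 0.57 ± 0.08 in the same order, and both probe sets were called in all 3 comparisons. With each array left out in turn, the fish oil difference stayed between 0.21 and 0.31 with adjusted p-values of 0.00111 to 0.0340.

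Slc25a11 carries oxoglutarate in exchange for malate and is part of the malate-aspartate shuttle. Its values were 9.30, 9.91 and 10.03 in control, 9.78, 9.95 and 10.07 in fenofibrate and 9.45, 9.66 and 9.90 in fish oil livers, so the fish oil median was the lowest and all groups overlapped. It was 1.20-fold higher on fenofibrate than on fish oil (0.26 ± 0.07, limma adjusted p = 0.00372). The differences from control did not pass: 0.14 ± 0.07 on fenofibrate (limma adjusted p = 0.117) and -0.12 ± 0.07 on fish oil (limma adjusted p = 0.318). The lowest controls were replicates 1 (9.30) and 2 (9.48). Without control replicates 1, 2 and 9, Slc25a11 was lower on fish oil than on control (-0.22, limma adjusted p = 0.0123), and the fenofibrate difference was 0.04 (limma adjusted p = 0.634). Leaving out the lowest controls raises the control mean by construction. With each array left out in turn, the fish oil difference did not pass (limma adjusted p = 0.0638 to 0.471).

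The ADP/ATP translocases exchange cytosolic ADP for ATP made in the matrix; Slc25a4 is the form known from heart and muscle, and Slc25a5 is a widely expressed form. Slc25a4 values were 7.46, 8.00 and 8.29 in control, 8.09, 8.30 and 8.76 in fenofibrate and 7.43, 7.79 and 8.04 in fish oil livers. Every fenofibrate liver was above every fish oil liver, and control livers overlapped both. Slc25a4 was 1.31-fold higher on fenofibrate than on control (0.39 ± 0.09, limma adjusted p = 4.73e-04) and 1.49-fold higher than on fish oil (0.57 ± 0.08, limma adjusted p = 1.29e-06), where 4.09% of all genes were higher and 2.25% lower without overlap. The fish oil difference from control, -0.19 ± 0.09, did not pass (limma adjusted p = 0.160). Without control replicate 1, the lowest control at 7.46, it was -0.24 and passed (limma adjusted p = 0.0383). Of its 3 measured probe sets, 2 were called on fenofibrate against control, none on fish oil, and all 3 on fenofibrate against fish oil.

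Slc25a5 values were 12.91, 13.02 and 13.05 in control, 12.97, 13.07 and 13.19 in fenofibrate and 12.85, 12.94 and 13.04 in fish oil livers, with overlap between all groups. It was 1.09-fold higher on fenofibrate than on fish oil (0.13 ± 0.03, limma adjusted p = 0.00270). Against control the differences were 0.07 ± 0.03 on fenofibrate (limma adjusted p = 0.123) and -0.06 ± 0.03 on fish oil (limma adjusted p = 0.266). This gene has 8 probe sets past the filter, and those with the suffix x_at can bind related sequences, of which Slc25a5 has many in the genome, so its single values are uncertain. Tested over 17162 probe sets, 4 of the 8 were higher on fenofibrate than on control, 0 were called on fish oil against control, and 7 were higher on fenofibrate than on fish oil. The third brightest of the 8 was 0.16 ± 0.03 higher on fenofibrate than on control (limma adjusted p = 2.91e-04) and the seventh was 0.28 ± 0.06 higher (limma adjusted p = 3.54e-04), while the brightest did not pass. With the mean of the probe sets in place of the brightest, Slc25a5 was 0.17 higher on fenofibrate than on control (limma adjusted p = 0.00116). Correlations between its probe sets, as deviations from group means over 33 arrays, ran from -0.52 to 0.94.

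**Figure D2:**
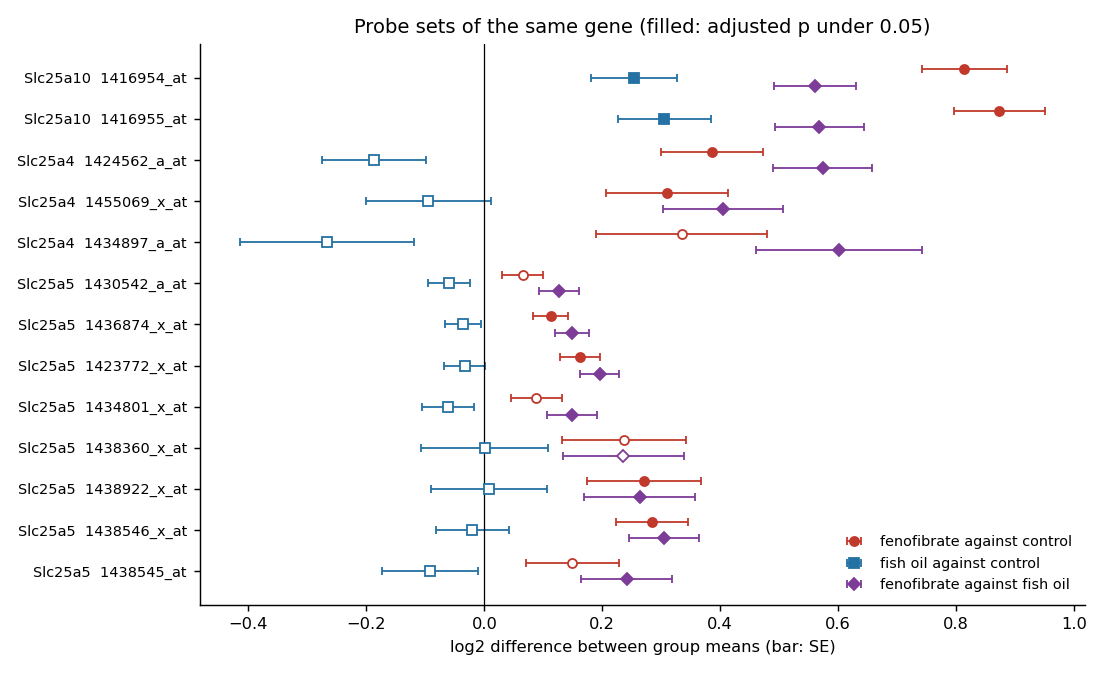
Log2 difference (horizontal axis) of each measured probe set of Slc25a10, Slc25a4 and Slc25a5 in the 3 comparisons; bars are standard errors and filled points passed an adjusted p under 0.05. The 8 Slc25a5 probe sets lie at 0.07 to 0.28 on fenofibrate against control, and 7 of them passed on fenofibrate against fish oil.

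Slc25a3 brings phosphate into the matrix for ATP synthesis. Its values were 12.02, 12.09 and 12.13 in control, 12.10, 12.16 and 12.25 in fenofibrate and 11.97, 12.03 and 12.14 in fish oil livers, and the groups overlapped. It was 1.06-fold higher on fenofibrate than on control (0.09 ± 0.03, limma adjusted p = 0.0185) and 1.10-fold higher than on fish oil (0.13 ± 0.03, limma adjusted p = 3.85e-04). The fish oil difference from control was -0.05 ± 0.03 (limma adjusted p = 0.339). With arrays centred on their medians the fenofibrate difference from control was 0.07 and no longer passed (limma adjusted p = 0.0591). The pooled standard deviation within diets was 0.05, and 0.1% of genes had a smaller one.

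Slc25a42 carries coenzyme A into the matrix in exchange for adenine nucleotides. Its values were 7.84, 8.28 and 8.96 in control, 8.07, 8.55 and 8.89 in fenofibrate and 8.17, 8.53 and 9.24 in fish oil livers, so both treated medians were above the control median and all groups overlapped. Neither difference from control passed, at 0.24 ± 0.12 on fenofibrate (limma adjusted p = 0.124) and 0.31 ± 0.13 on fish oil (limma adjusted p = 0.0998). Their 95% confidence intervals were -0.01 to 0.49 and 0.05 to 0.57. The highest control was replicate 1, at 8.96. Without it the fenofibrate difference was 0.31 (limma adjusted p = 0.0313) and the fish oil difference was 0.38 (limma adjusted p = 0.0259).

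Slc25a25 exchanges ATP-magnesium for phosphate and is regulated by calcium. Its values were 7.16, 9.20 and 9.83 in control, 7.99, 9.19 and 10.04 in fenofibrate and 7.28, 9.20 and 9.95 in fish oil livers. The medians were nearly equal, and each group held both low and high livers. The differences were 0.12 ± 0.32 on fenofibrate (limma adjusted p = 0.788) and -0.09 ± 0.33 on fish oil (limma adjusted p = 0.895), with 95% confidence intervals of -0.54 to 0.79 and -0.77 to 0.58. Its pooled standard deviation within diets was 0.79, larger than that of 98.9% of genes, where the median gene had 0.20. Its second measured probe set ran from 4.40 to 6.29 in control livers, and its deviations correlated with those of the first at 0.65 over 33 arrays.

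**Figure D3:**
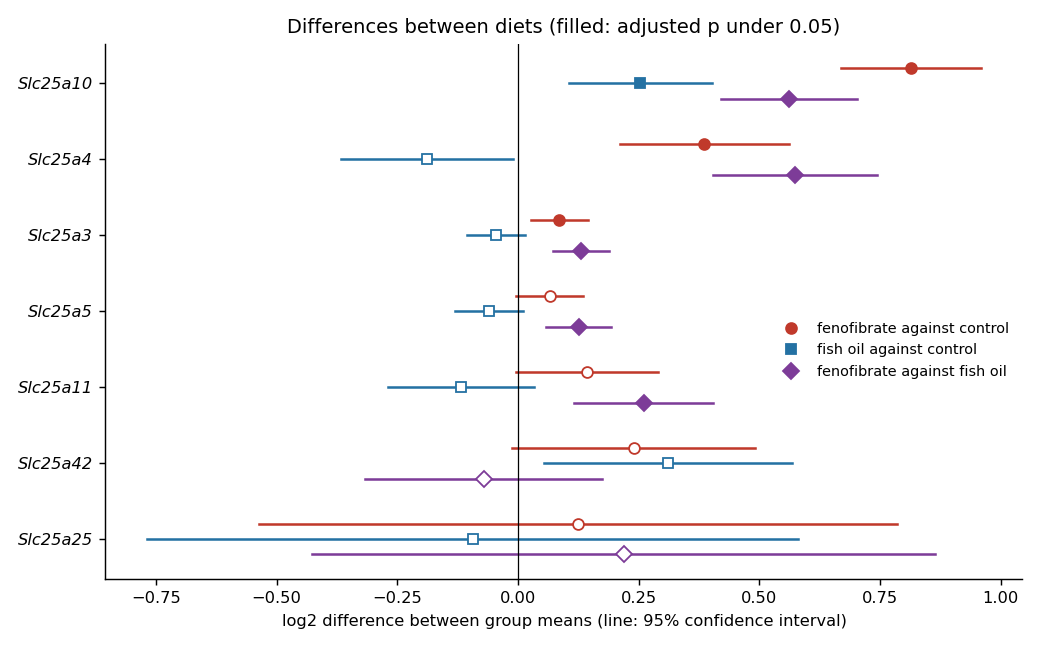
Log2 difference between group means for the 7 carriers in the 3 comparisons; lines are 95% confidence intervals and filled points passed an adjusted p under 0.05. Slc25a10 passed in all 3 comparisons, Slc25a3 and Slc25a4 in 2, Slc25a5 and Slc25a11 in 1, and Slc25a25 and Slc25a42 in none.

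The 3 genes most like each carrier were taken by Pearson's r over all 33 arrays, which includes the differences between diets; r of the deviations from group means is given second. For Slc25a10 they were Eci1, an enzyme of unsaturated fatty acid oxidation (0.95 and 0.68), Bhlhb9 (0.94 and 0.67) and Phb2, a prohibitin (0.93 and 0.70). For Slc25a4 they were Fam126a (0.83 and 0.53), Pltp, the phospholipid transfer protein (0.81 and 0.37), and Unc119 (0.81 and 0.42), with smaller values within diets than over all arrays. For Slc25a3 they were Cox6a1 (0.85 and 0.62) and Ndufs4 (0.84 and 0.61), both respiratory chain subunits, and Nudt9 (0.83 and 0.50). For Slc25a5 they were Pcbd1 (0.81 and 0.64), Slc25a3 (0.80 and 0.63) and Ndufa8 (0.79 and 0.58). For Slc25a11 they were Vdac1, the main channel of the outer membrane (0.84 and 0.81), Gstt3 (0.82 and 0.72) and Vnn3 (0.81 and 0.78). For Slc25a42 they were 1110008P14Rik (0.77 and 0.78), Cox18 (0.77 and 0.73) and Psmc5 (0.76 and 0.76). For Slc25a25 they were Dusp1, an immediate-early phosphatase (0.70 and 0.70), G6pc, the glucose-6-phosphatase of gluconeogenesis (0.70 and 0.73), and Pias2 (0.67 and 0.67). These correlations describe arrays that share 1 normalization and carry no test.

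**Figure D4:**
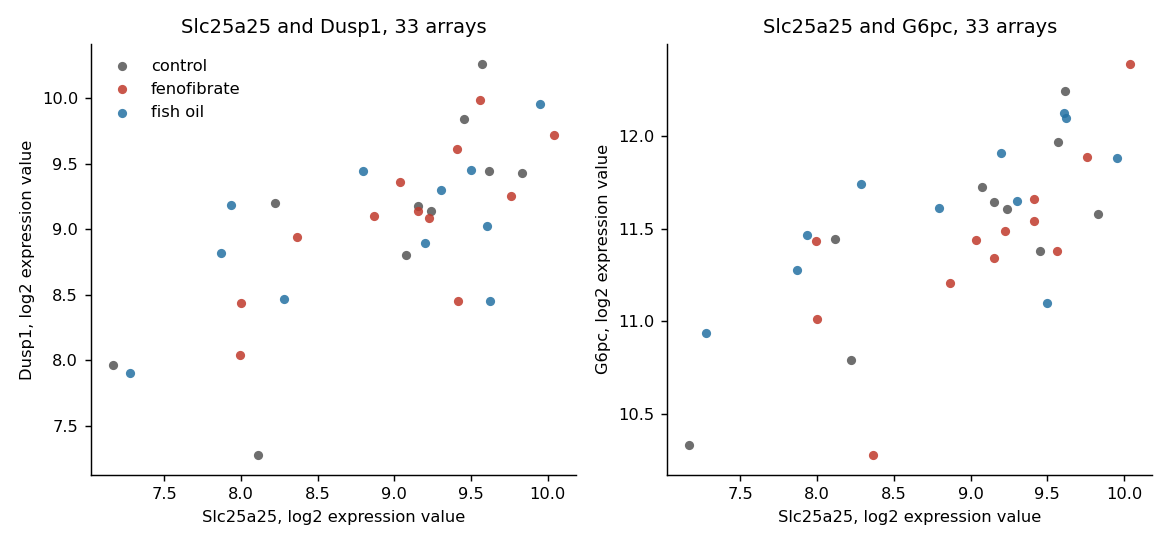
Log2 value of Slc25a25 (horizontal axis) against that of Dusp1 and of G6pc (vertical axes) in the same liver, 1 point per array, coloured by diet. Control replicate 5, the lowest liver for Slc25a25 at 7.16, has 7.96 for Dusp1 and 10.33 for G6pc, near the low end of each, and the diets are intermixed.

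Among the 7 carriers, 21 relations between deviations from group means were computed over 33 arrays, with permutation p-values from 100000 resamples within diets. The relation of Slc25a10 with Slc25a11 had r = 0.66 (permutation p = 1.8e-04, adjusted 0.00284) and rho = 0.67 (permutation p = 9e-05, adjusted 0.00189). It was 0.68, 0.78 and 0.54 within control, fenofibrate and fish oil livers. Without the 2 livers farthest from the median for Slc25a10, control replicates 9 and 1, it was 0.59. The relation of Slc25a3 with Slc25a5 had r = 0.63 (permutation p = 2.7e-04, adjusted 0.00284) and rho = 0.64 (permutation p = 1.8e-04, adjusted 0.00189). It was 0.56 without the 2 livers farthest from the median for Slc25a3, and 0.10, 0.65 and 0.87 within control, fenofibrate and fish oil livers. In both relations the farthest livers of the second gene were not chosen for leaving out. Slc25a5 was represented by its brightest probe set only, and its 8 probe sets correlated with each other at -0.52 to 0.94. Whether its other probe sets share the relation with Slc25a3 was not tested. The other 19 relations did not pass adjustment. Pairs of consecutive array label numbers, each within 1 diet, deviated together for some carriers, so the permutation was repeated with the 16 pairs moved as units, an alternative chosen after seeing the data. Both relations passed that way too, Slc25a10 with Slc25a11 at an adjusted permutation p of 0.00651 and Slc25a3 with Slc25a5 at 0.00231.

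Of the 47 other carriers of the family, 28 were measured. On fenofibrate 6 were higher and 5 lower than on control, which is 39.3% beside the 40.8% of all genes. On fish oil 5 were higher and 5 lower, which is 35.7% beside 14.5%. Without control replicates 1, 2 and 9 these counts were 4 (14.3%) and 2 (7.1%), beside 7.9% and 8.0% of all genes. Slc25a20, which brings acylcarnitines into the matrix for oxidation, was higher on fenofibrate (0.76 ± 0.07, limma adjusted p = 4.05e-10) and on fish oil (0.40 ± 0.07, limma adjusted p = 2.24e-04). Slc25a33, a pyrimidine nucleotide carrier, was higher on both by similar values (0.65 ± 0.10 and 0.63 ± 0.10), as was Slc25a46 of the outer membrane (0.35 ± 0.05 and 0.28 ± 0.05). Slc25a12, an aspartate-glutamate carrier, was lower on both (-0.56 ± 0.08 and -0.37 ± 0.08). Slc25a17, the peroxisomal carrier of coenzyme A and other cofactors, was higher on fenofibrate (0.22 ± 0.07, limma adjusted p = 0.0128) and had a difference of 0.09 on fish oil (limma adjusted p = 0.457). Mtch2 of the outer membrane was higher on fenofibrate (0.37 ± 0.04), with 0.06 ± 0.04 on fish oil (limma adjusted p = 0.413). The citrate carrier Slc25a1 was lower on fish oil (-0.52 ± 0.06), with -0.07 ± 0.06 on fenofibrate (limma adjusted p = 0.353).

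**Figure D5:**
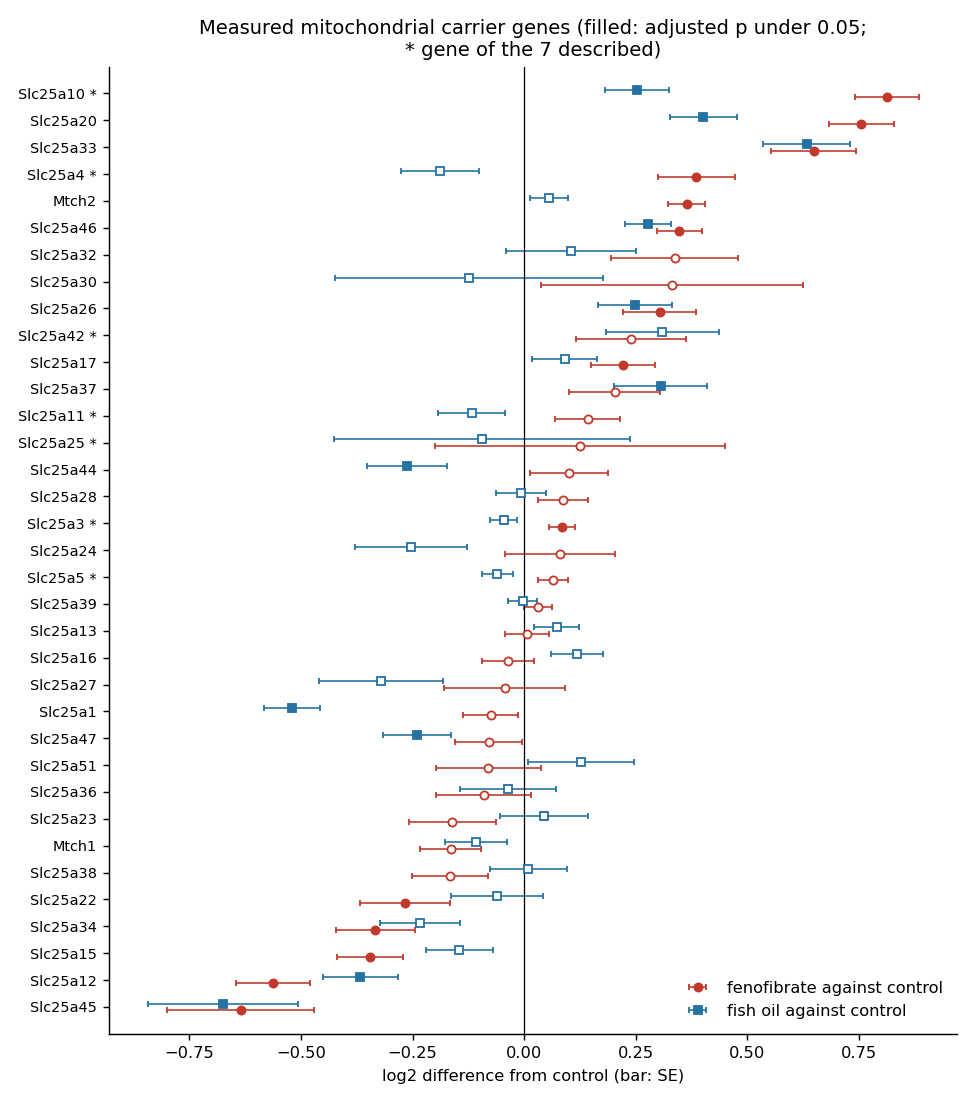
Log2 difference from control (horizontal axis) of the 7 carriers (marked *) and the 28 other measured carriers of the family, ordered by their fenofibrate difference, for fenofibrate and fish oil, which share their control livers; bars are standard errors and filled points passed an adjusted p under 0.05. Slc25a10 (0.81 and 0.25) and Slc25a20 (0.76 and 0.40) are at the top, and both passed on both diets.

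Genes that work with these carriers were described as lists, to be read against 40.8% of all genes called on fenofibrate and 14.5% on fish oil. Without control replicates 1, 2 and 9, 22.1% of all genes were called higher and 19.8% lower on fenofibrate. The shares on fish oil were then 7.9% and 8.0%. The ATP synthase uses the phosphate and ADP brought in by Slc25a3 and the translocases. Its list held 15 measured genes, which are subunits and the inhibitor Atpif1. Of these, 14 (93.3%) were higher on fenofibrate than on control (median 0.14), among them Atp5g3 (0.21 ± 0.03), Atp5d (0.33 ± 0.05) and Atpif1 (0.30 ± 0.07). Without control replicates 1, 2 and 9 the count was 9 of 15. On fish oil 1 of the 15 was called, the inhibitor Atpif1 (-0.39 ± 0.07), and without the 3 controls Atp5g1 was lower too, making 2. The 4 genes around citrate and malate were Cs, which makes citrate in the matrix, the citrate carrier Slc25a1, and the cytosolic enzymes Acly, which cleaves citrate, and Me1, which oxidises malate. Me1 (1.23 ± 0.10) and Cs (0.37 ± 0.06) were higher on fenofibrate, and all 4 were lower on fish oil, with Acly at -1.34 ± 0.16. Of 4 malate-aspartate shuttle enzymes, Mdh2 was higher (0.45 ± 0.05) and Got1 lower (-0.42 ± 0.12) on fenofibrate, and Got1 was lower on fish oil (-0.49 ± 0.13). Of 12 genes of coenzyme A synthesis and turnover, 4 were higher and 1 lower on fenofibrate (41.7%, near the share of all genes), among them Ppcs (0.83 ± 0.07) and Nudt7 (-0.38 ± 0.08). On fish oil 1 was higher, Ppcs (0.23 ± 0.07), and 1 lower, Pank3 (-0.23 ± 0.08). Without the 3 controls the coenzyme A counts were 5 higher and 2 lower on fenofibrate and 2 higher and 2 lower on fish oil. Of 5 measured genes of the pyruvate carrier and outer membrane channels, Tspo (0.38 ± 0.06) and Mpc1 (0.21 ± 0.07) were higher on fenofibrate (40.0%, also near that share). None of the 5 was called on fish oil with all controls, and 3, Mpc1, Vdac1 and Vdac2, were lower without control replicates 1, 2 and 9.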

How the data were processed

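Liver RNA was hybridised to Affymetrix arrays. The authors deposited 1 normalized log2 value for each probe set and array. The submitters' processing notes name GCRMA 2.24.1, which corrects background and equalises array distributions. Differences of dim probe sets are less certain than those of bright ones. Arrays have no sequencing depth, so their number limits the precision. Of 45101 probe sets, 64 controls were left out, 34945 carry 1 gene, 932 carry several and 9160 are not named here. Probe sets at a log2 value of 4 in 10 of 33 arrays were kept (17162). The probe set with the highest mean stood for its gene. limma 3.58.1 (statmod 1.5.0, R 4.3.3) fitted 1 linear model over the 3 diets, tested two-sided with Benjamini-Hochberg adjustment over 9005 genes; the fit was tested on simulated data. Cage mates are not identified, so the tests treat mice that shared a cage as independent. Named were all carriers, up to 4 genes per list and comparison with the smallest adjusted p, Slc25a20 and Slc25a17, and the 3 genes most like each carrier. The carriers and lists were chosen with earlier results of these data known. Alternatives changed the filter, scaling, probe set choice, variance model, blocks and arrays used; permuting label pairs as units was added after seeing the data.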

Additional observations from a re-analysis of the deposited data

Results flagged for a closer look

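The Slc25a4 value of control replicate 1, 7.46, lay far below the other control livers, the nearest of which was at 7.89; the gap was 0.516 of the range of the 10 controls. The same liver was also the lowest control for Slc25a10 (9.59) and Slc25a11 (9.30). It was the highest control for Slc25a3 (12.13), Slc25a25 (9.83) and Slc25a42 (8.96). None of these other gaps was large enough to be singled out. This check was run on the 10 control livers only, so the fenofibrate and fish oil groups, with 12 and 11 livers, were not examined by it.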

How the results depend on the processing

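Slc25a10 was called in all 3 comparisons, and Slc25a4 on fenofibrate against control and against fish oil, under each alternative run. Of the differences of single carriers over all alternatives and left-out arrays, 923 kept direction and side of the threshold, 14 passed newly, 1 no longer passed and 7 turned, all of these uncalled. The count of carriers called on fish oil against control, 1, became 4 with array weights, 2 with the replicate block and 3 without control replicates 1, 2 and 9; the count of their probe sets, 2, became 1 with only the 2 groups compared, 4 with array weights and 4 without those 3 controls. With 1 array left out, the carriers called numbered 3 to 4, 1 to 3 and 5 to 5, and the probe sets 8 to 11, 2 to 4 and 13 to 15, for fenofibrate against control, fish oil against control and fenofibrate against fish oil. The carrier count of 3 and the probe set count of 4 on fish oil came without control replicate 1. Slc25a42 passed with the replicate block on fenofibrate (0.28, limma adjusted p = 0.0256) and on fish oil (0.35, limma adjusted p = 0.0174); the block changed no other carrier's call. Over all genes, deviations of same-numbered livers of different diets correlated at -0.21 to 0.35 (median 0.05). For other-numbered livers of different diets this was -0.41 to 0.40 (median -0.02). Of 33 arrays, 3 correlated best with their own number, so the numbers were not taken as pairs. The Slc25a25 difference turned to 0.01 on fish oil against control without control replicates 1, 2 and 9, and ranged from -0.0726 to 0.22 on fenofibrate and from -0.29 to 0.0635 on fish oil against control with 1 array left out. The Slc25a42 difference between the diets was 0.0028 with array weights and 0.14 without the arrays whose label carries an A. Genes called on fish oil against control numbered 1308, and 845 with pairs of consecutive label numbers as a random block. No scaling moved the median of all genes by over 0.1. The cause was not tested for any of these.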

Other observations

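Array labels carry consecutive numbers that form 16 pairs of livers, each within 1 diet, and the labels do not say what the numbers stand for. The intraclass correlation of deviations from group means over the 16 pairs was 0.62 for Slc25a11, 0.41 for Slc25a25, 0.38 for Slc25a5, 0.31 for Slc25a42, 0.22 for Slc25a10, 0.21 for Slc25a4 and -0.10 for Slc25a3. The 4 probe sets of the carriers below the filter belonged to Slc25a25, Slc25a3, Slc25a4 and Slc25a42, of which that of Slc25a3 reached 4.55 in 1 control liver and the other 3 stayed under 4 in every liver.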
